A study of Mus musculus with 6 samples.

Results

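Siglecf-type tumour neutrophils were taken here as neutrophils of the mouse pancreatic tumour in which at least 2 of the 4 genes Siglecf, Ffar2, Gpr84 and Il23a were detected, that is, had at least 1 unique molecular identifier (UMI, 1 counted transcript molecule). A neutrophil was a cell with at least 3 of Csf3r, G0s2, Cxcr2, Hdc, Il1r2, Mmp9 and Retnlg detected and fewer than 2 UMIs of Csf1r. The rule found 2119 such cells among 7407 neutrophils and 54911 kept cells of 6 libraries. The other 5288 neutrophils, with 0 or 1 of the 4 genes detected, are the cells they are set against. The members were thus chosen by measured UMIs of these 12 genes, so every difference between these classes is a description and was not tested.

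Neutrophils are short-lived phagocytes that leave the bone marrow with stored granule proteins and change their expression once inside a tissue. Neutrophils that carry Siglec-F, a sialic acid receptor better known from eosinophils, have been described in mouse lung tumours as an aged, tumour-resident state. Ffar2 and Gpr84 encode receptors for short- and medium-chain fatty acids, and Il23a encodes the p19 subunit of the cytokine IL-23.

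All mice were of the KPC model, genotype KrasLSL.G12D/+; P53LSL.R172H/+; Pdx1-Cre, in which the Pdx1 promoter drives Cre in the pancreatic lineage, so that the neutrophils themselves are host cells outside that lineage. In the IPI-926 arm, 3 mice received IPI-926, which blocks Smoothened and with it the Hedgehog pathway, by daily oral gavage at 40 mg/kg, and in the vehicle arm 3 mice received only hydroxypropyl-beta-cyclodextrin, the vehicle. Dosing lasted 2 days, tumours were taken 2 hours after the last dose, and each gave 1 library of the 10x Genomics Single Cell 3' v3 kind. The comparison of arms asks which cells respond to a brief block of Smoothened.

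Total UMIs per library ran from 100810942 to 174929328. Libraries were not alike in the cells that matter here. IPI-926 replicate 3 held 207 neutrophils among 16426 kept cells, and 1 of them met the rule, a cell of 109016 UMIs. That library entered no test of Siglecf-type cells, which needed 20 cells, so those tests set 2 IPI-926 libraries against 3 vehicle libraries. Vehicle replicate 1 held 35 members, of which 3 cells carried 75.4% of the UMIs. Over all libraries 106 members (5.00%) had more than 10000 UMIs and carried 47.8% of the members' UMIs. Scrublet scores marked 37 of these 106 as doublets. Values are therefore also given for cells of 1000 to 3000 UMIs, where single deep cells cannot weigh, and tests are also given without cells over 10000 UMIs, a step chosen after these values were seen. Of the members, 31 shared a barcode with a kept cell of another library.

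Members were kept for having rule genes detected, so the share of members with each gene does not test the label Siglecf-type. The 4 genes were detected in 47.8% (Siglecf), 63.8% (Ffar2), 61.2% (Gpr84) and 70.9% (Il23a) of members, so 1107 of the 2119 cells carried no Siglecf UMI. In GRCm38, Siglecf lies at chr7:43351341-43359531 on the plus strand, and on the minus strand lie Ffar2 at chr7:30818348-30823775, Gpr84 at chr15:103308235-103310612 and Il23a at chr10:128296139-128298752. The most frequent combination was Gpr84 with Il23a alone (361 cells), then Ffar2 with Il23a (308 cells), and all 4 genes were found in 161 cells. Csf3r, the receptor for the neutrophil growth factor G-CSF, was detected in 82.7% of members and 79.0% of other neutrophils. Median depth was 1949 UMIs in members and 1664 in other neutrophils.

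The 8 listed eosinophil genes were low in both classes. In members of the 5 libraries used they summed to 3.65 to 57.6 CPM (UMIs of a gene scaled to 1000000 in all). In other neutrophils of the 6 libraries they summed to 2.13 to 23.8 CPM. Over all members, Epx and Ear6 had 0 UMIs, and Prg2, Il5ra and Ear1 had 1 UMI each, while Ear2 had 47 and Alox15 had 69. Genes of macrophages were present at low levels: the 10 listed markers summed to 239.6 to 647 CPM in members of the 5 libraries used, against 388 to 1247 CPM in other neutrophils of the 6 libraries. Epithelial keratins and related markers summed to 2032 to 5516 CPM in members and 434 to 6524 CPM in other neutrophils, and their part in the values below was not tested. In members of up to 10000 UMIs they summed to 444 to 2291 CPM.

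Cell numbers fell with each further gene. There were 3035 neutrophils with none of the 4 genes, 2253 with 1, 1356 with 2, 602 with 3 and 161 with 4. Their median UMIs were 1616, 1714, 1887, 2025.5 and 2399, so cells with more rule genes were also deeper. Just outside the rule lay 228 cells that had 2 or more UMIs of Csf1r, with a median of 6709.5 UMIs, and 148 cells with 2 of the 7 neutrophil genes; just inside lay 422 members with 1 Csf1r UMI and 295 with 3 of the 7 genes.

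The rule genes were not spread evenly over cell types, given here as what chose the cells. With each cell thinned to 1000 UMIs, Il23a was detected in 53.3% of members and 13.9% of other neutrophils, and in 1.03% of macrophage-marker cells, 1.15% of epithelial-marker cells and 0.19% of lymphocyte-marker cells. Siglecf was detected in 27.1% of members and 4.48% of other neutrophils after thinning, and in 0.30% of macrophage-marker cells and 0.03% of lymphocyte-marker cells. Without thinning, the shares for Siglecf were 47.8%, 7.15%, 2.55% and 0.09%, at median depths of 1949, 1664, 7976 and 3077 UMIs. After thinning, other neutrophils carried each of the 4 genes more often than macrophage-, epithelial- and lymphocyte-marker cells did. Lymphocyte-marker cells should lack these genes, but their shares are pooled over libraries, and the part of free RNA in these values was not tested.

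Across all neutrophils thinned to 1000 UMIs, whichever class they fell in, each of the 4 genes was detected more often in cells with another of them than in cells without it, though most cells with 1 gene lacked the other. Ffar2 was detected in 27.7% of the 770 cells with Siglecf and 14.3% of the 6038 without it, and was the more frequent in the cells with Siglecf in 5 of the 5 libraries that had 10 such cells. Gpr84 was detected in 28.3% of cells with Ffar2 and 12.6% of cells without. The pair of Gpr84 and Il23a had the widest gap of the 6 pairs, with Il23a in 43.5% of the 1024 cells with Gpr84 and 22.6% of the 5784 without. Siglecf was tied least to Il23a, which was detected in 32.6% of cells with Siglecf and 24.9% of cells without, and was the more frequent in 3 of 5 libraries.

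The share of neutrophils that were Siglecf-type did not separate the arms. They were 24.8% (642 of 2590 cells), 24.9% (313 of 1257) and 0.48% (1 of 207) of neutrophils in IPI-926 replicates 1 to 3, against 10.3% (35 of 339), 42.0% (958 of 2282) and 23.2% (170 of 732) in vehicle replicates 1 to 3. Exact Clopper-Pearson 95% intervals, which cover counting error only, were 23.1% to 26.5%, 22.5% to 27.4% and 0.012% to 2.66% for IPI-926, and 7.30% to 14.1%, 39.9% to 44.0% and 20.2% to 26.5% for vehicle. The arms overlapped. The share averaged 16.7 ± 14.1% with IPI-926 and 25.2 ± 15.9% with vehicle (SD, n = 3 each), a difference of -8.45 percentage points (two-sided exact permutation test over 20 assignments, p = 0.6; 3 libraries against 3 cannot go below 0.1). Without IPI-926 replicate 3 the difference was -0.33 points, and without vehicle replicate 2 it was -0.05 points.

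Detection depends on depth, and thinning each cell to 1000 UMIs lowered the shares to 14.5%, 13.9% and 0% (0 of 91 cells, exact interval up to 3.97%) with IPI-926 and to 6.67%, 28.5% and 16.4% with vehicle. Vehicle replicate 3 then stood above IPI-926 replicates 1 and 2, and the arms still overlapped. Neutrophils as a whole were 17.5 ± 15.5% of kept cells with IPI-926 and 13.0 ± 10.2% with vehicle (SD, n = 3 each; two-sided exact permutation p = 0.8). Fewer cells in the tumour and fewer cells recovered cannot be told apart.

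**Figure D1:**
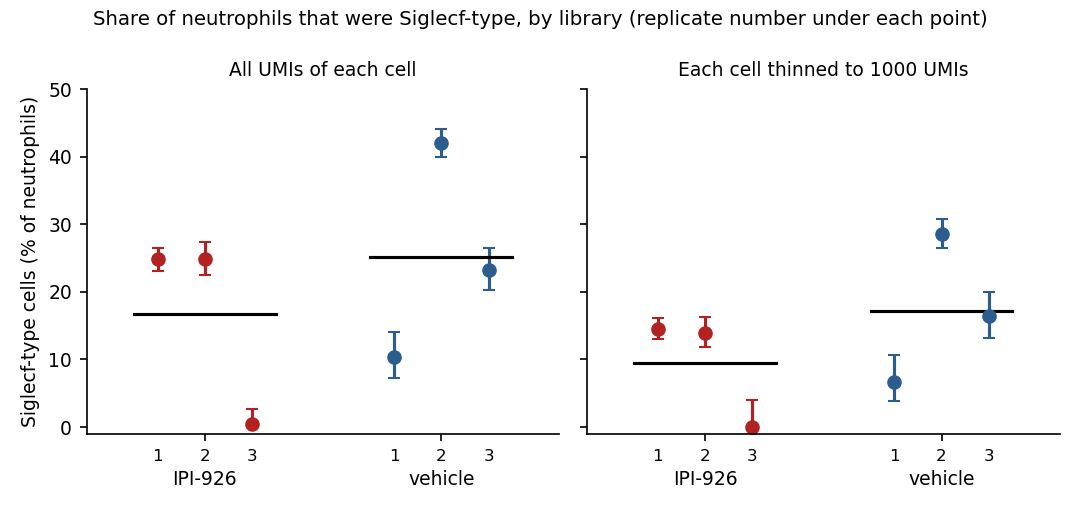
Siglecf-type cells as a percent of neutrophils (vertical axis) in each library, IPI-926 left and vehicle right, from all UMIs (left panel) and after thinning each cell to 1000 UMIs (right panel). Points are libraries with exact 95% intervals, numbers are replicates and black lines are group means; IPI-926 replicate 3 lies at 0.48% and vehicle replicate 2 at 42.0% in the left panel, and the groups overlap.

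Siglecf-type cells carried more RNA of several inflammatory cytokines than other neutrophils did, and less of genes of the circulating neutrophil. The named genes were the 12 of largest and the 12 of smallest log2 ratio, Siglecf-type over other neutrophils, among genes at 50 CPM or more in either class whose ratio had the same sign in all 5 libraries with 20 cells of both. Of 8715 genes measured, 6.32% were higher and 7.57% lower in Siglecf-type cells in every library. In cells of 1000 to 3000 UMIs, the shares were 17.0% and 6.58% of 7251 genes. Ratios are of mean CPM over libraries with 5 CPM added, which pulls those of low genes towards 0.

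Tnf, the gene of the cytokine tumour necrosis factor, had 875 and 849.8 CPM in Siglecf-type cells of IPI-926 replicates 1 and 2 and 164, 1152 and 230.0 CPM in those of vehicle replicates 1 to 3. In other neutrophils of the same libraries it had 189 and 301 CPM with IPI-926 and 49.1, 431 and 93.4 CPM with vehicle. It was the higher in Siglecf-type cells in each library, while the levels in vehicle replicates 1 and 3 were well under those of the other 3 libraries. Its log2 ratio was 1.60, and 1.65 in cells of 1000 to 3000 UMIs.

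Il1a, which encodes the alarm cytokine interleukin-1 alpha, had 544, 908, 171, 701 and 693 CPM in Siglecf-type cells of the same 5 libraries in that order. It had 199, 311, 76.9, 227 and 184 CPM in the other neutrophils. The ratio was 1.57, and 1.46 at like depth. Further genes of largest ratio, with the value at like depth second, were Ltc4s, which makes leukotriene C4 (1.36 and 1.09), the kinase gene Ikbke (1.24 and 1.25), the phosphatase gene Dusp2 (1.16 and 1.28), the purine receptor gene P2ry13 (1.12 and 1.22), and Scimp, an adaptor of immune receptors (1.11 and 1.14). Car4, a carbonic anhydrase gene, had ratios of 1.87 and 1.18. Bcl2a1d, a survival gene of the BCL2 family, had ratios of 1.25 and 1.23, though it belongs to a cluster of near-identical copies whose reads can be split or lost in counting.

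The remaining genes of largest ratio were near or under 0 at like depth. Ube2c, a mitosis gene, had a ratio of 1.42 over all cells and -0.30 in cells of 1000 to 3000 UMIs, and its 498 CPM in Siglecf-type cells of vehicle replicate 1 came from a library where 3 cells carry most UMIs. Sec11c, a signal peptidase subunit gene, had ratios of 1.23 and 0.23.

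At the other end lay genes of the circulating neutrophil. Ly6g, the surface antigen that defines mouse neutrophils, had 42.5, 2.74, 7.61, 0.861 and 0 CPM in Siglecf-type cells of IPI-926 replicates 1 and 2 and vehicle replicates 1 to 3, against 78.8, 14.2, 149.8, 7.40 and 44.9 CPM in other neutrophils. Its log2 ratio was -2.02 and at like depth -3.39. Mmp8, the neutrophil collagenase, had a ratio of -1.79 (-1.99 at like depth), Slpi, a secreted protease inhibitor, -1.35 (-1.06), Rdh12, a retinol dehydrogenase gene, -1.50 (-2.51), and Adam8, a surface metalloprotease gene, -1.13 (-1.47). Retnlg, a gene of the rule for neutrophils, was detected in 9.16% of members and 28.4% of other neutrophils, and was lower in members in 4 of 5 libraries. Every other rule gene for neutrophils had a ratio between -0.28 and 0.54.

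Igfbp5, Gng11, Rarres2, Col6a3 and Sox11, which are genes of stromal or other cells, were also among the 12 smallest ratios, at -2.02 to -1.24. At like depth these ran from -1.17 to -0.34, and the fibroblast markers summed to 38.3 to 4164 CPM in Siglecf-type cells and 978 to 7364 CPM in other neutrophils. Fabp4, a fatty acid binding protein gene of endothelial cells and macrophages, and the B cell chemokine gene Cxcl13 turned to 0.42 and 0.58 at like depth, and Cxcl13 had 737 CPM in other neutrophils of vehicle replicate 1 alone.

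**Figure D2:**
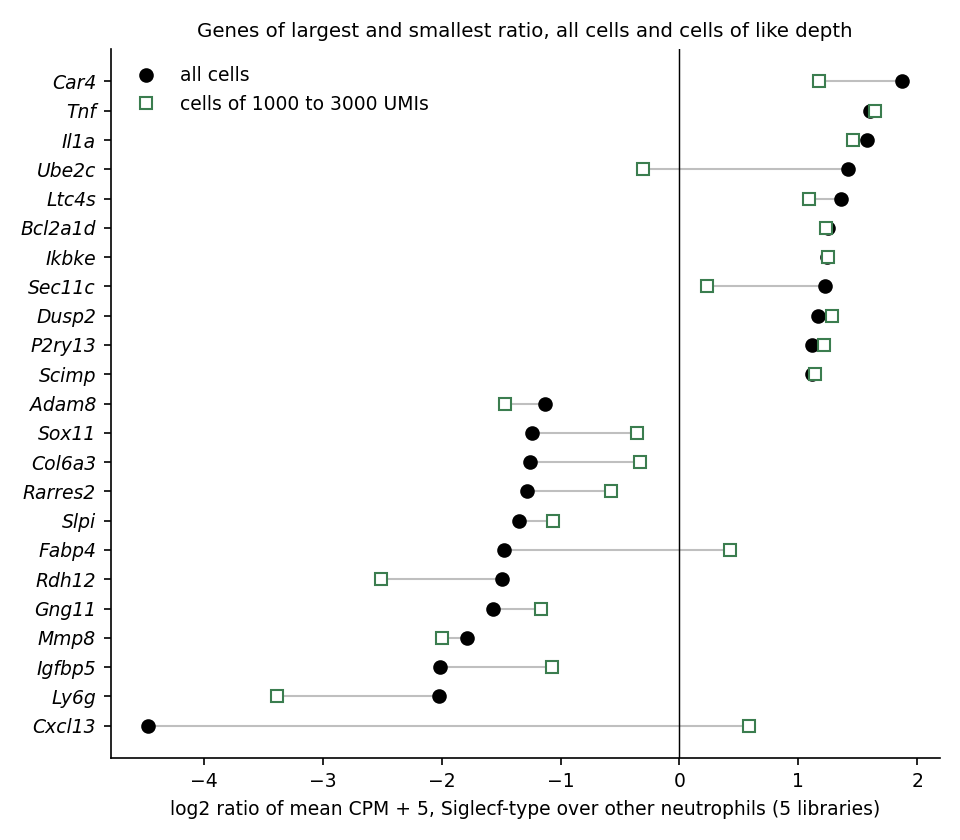
Log2 ratio of mean CPM, Siglecf-type over other neutrophils, for the genes named by largest and smallest ratio (rows), over all cells (filled circles) and over cells of 1000 to 3000 UMIs (open squares), in 5 libraries. Tnf, Il1a, Dusp2 and Ly6g keep their side, while Ube2c, Fabp4 and Cxcl13 cross 0.

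Levels of several genes differed with the number of rule genes detected, which is again a description, of genes chosen for their class difference. Since a rule gene can be missed at this depth, the means do not tell a gradual change from a mixture of 2 kinds of cell. Cells of 1000 to 3000 UMIs were split by that number in the 4 libraries with enough cells of each kind (IPI-926 replicates 1 and 2, vehicle replicates 2 and 3). Tnf averaged 324 ± 188, 779 ± 465, 1314 ± 688 and 2143 ± 854 CPM with 0, 1, 2 and 3 or 4 genes detected (SD over 4 libraries). Icam1, the gene of an adhesion molecule, averaged 351 ± 174, 719 ± 280.0, 1064 ± 411 and 1483 ± 386 CPM in the same order. Il1a averaged 346 ± 97.7, 658 ± 80.8, 1098 ± 148 and 1650.3 ± 101 CPM.

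Genes of the circulating cell went the other way, with the widest gap for Retnlg between 0 genes and 1. Slpi averaged 729 ± 322, 427 ± 269.6, 271 ± 174 and 217 ± 107 CPM. Ly6g averaged 67.0 ± 61.7, 17.3 ± 4.69, 6.30 ± 7.26 and 0.842 ± 1.68 CPM. Retnlg averaged 1927 ± 1289, 519.9 ± 443, 219.5 ± 370 and 198 ± 259 CPM.

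Other neutrophil genes differed less over the same steps. Csf3r averaged 1333 ± 158 CPM with 0 genes detected and 1072 ± 275 CPM with 3 or 4, and Vegfa 67.8 ± 25.2 and 88.3 ± 38.3 CPM. Cd14, a co-receptor for lipopolysaccharide, averaged 4799 ± 1138 and 4049.6 ± 1586 CPM.

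**Figure D3:**
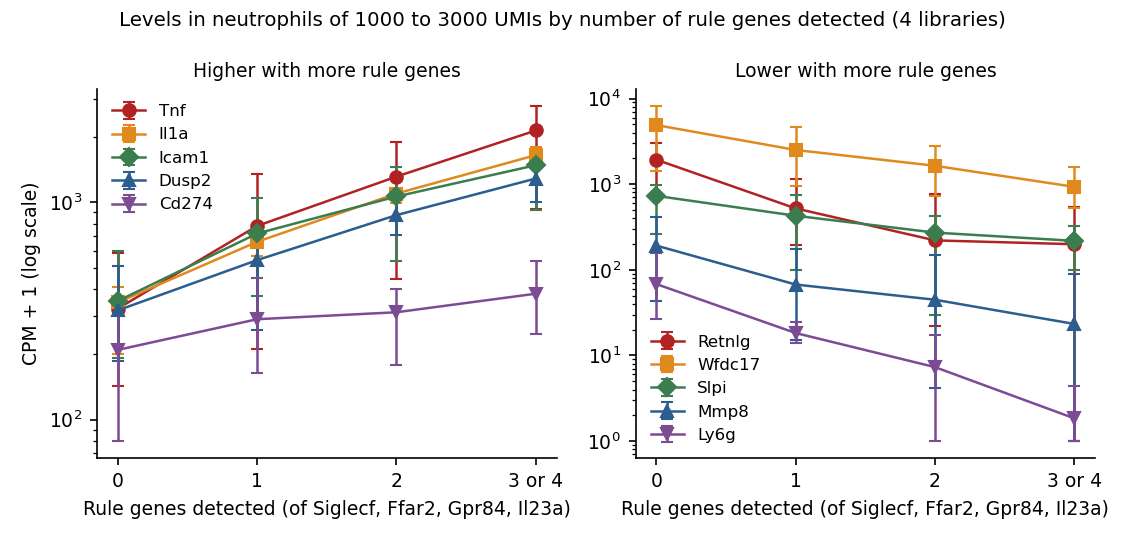
Mean CPM plus 1 (log axis) over 4 libraries in neutrophils of 1000 to 3000 UMIs, by the number of rule genes detected (horizontal axis), for genes that were higher (left) and lower (right) with more rule genes. Bars run from the lowest to the highest library; Tnf lies at 324 CPM at 0 genes and 2143 CPM at 3 or 4, and Ly6g at 67.0 and 0.842 CPM.

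Lists of genes, described at 1000 to 3000 UMIs, show where the classes parted. Of 16 targets of the transcription factor NF-kB, 8 were higher in Siglecf-type cells in all 5 libraries and 0 were lower, where 17.0% and 6.58% of all genes were, with a median log2 ratio of 0.39 against 0.16 over all genes. Icam1 averaged 1117 ± 392 CPM in Siglecf-type and 455 ± 264 CPM in other neutrophils (SD, n = 5 each; ratio 1.29), and Sod2, a mitochondrial superoxide dismutase, 731 ± 122 and 400.3 ± 119 CPM (0.86). Nfkbia, which encodes the inhibitor IkB-alpha and is itself an NF-kB target, averaged 7317 ± 2235 and 5234 ± 2461 CPM (0.48).

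Promoters were searched because these NF-kB targets were high together. The kappaB motif, written as GGGA and TTCC with 2 bases of any kind between them and searched on both strands, was found in windows from 250 bases before to 50 after the start of 1.63% of 27025 genes. Among the genes of these sets with a window, it was found in 2 of 13 NF-kB targets, in 0 of 3 rule genes, in 0 of 9 genes of largest ratio and in 0 of 9 of smallest ratio. The match says only that these letters lie in the window. The promoter of Nfkbia, shown as one of the 2 matches, lies on the minus strand at chr12:55492598-55492897 (GRCm38.p6, sequence from RefSeq), with the match, in capitals, at position -29 from the start of transcription.
Nfkbia: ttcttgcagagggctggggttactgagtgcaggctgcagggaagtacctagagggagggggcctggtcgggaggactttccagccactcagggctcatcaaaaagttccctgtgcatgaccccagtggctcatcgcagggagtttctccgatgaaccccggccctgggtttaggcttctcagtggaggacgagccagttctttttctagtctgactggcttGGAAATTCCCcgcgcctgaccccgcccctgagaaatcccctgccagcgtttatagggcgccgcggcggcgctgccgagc

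Of 14 secreted cytokines and chemokines measured at like depth, 7 were higher in Siglecf-type cells in every library and 1 was lower. Beside Tnf and Il1a, the higher ones were Cxcl1 and Cxcl2, which attract neutrophils (ratios 0.82 and 0.48), Csf1, the macrophage growth factor (0.71), Il1rn, the antagonist of the interleukin-1 receptor (0.60), and Il1b (0.26). Osm, which encodes oncostatin M, was the lower one, at 104 ± 68.5 CPM in Siglecf-type and 225 ± 74.3 CPM in other neutrophils (ratio -1.08).

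Of 15 genes of circulating mature neutrophils, 12 were lower in Siglecf-type cells in every library and 0 were higher, with a median log2 ratio of -0.69. S100a8, a calcium-binding alarmin, averaged 8670.4 ± 5709 CPM in Siglecf-type and 20706 ± 11749.7 CPM in other neutrophils (ratio -1.26), and its partner S100a9 18944 ± 12514 and 35976 ± 17517 CPM (-0.93). Itgam and Cebpd, 2 of the 3 others, had ratios of -0.01 and 0.02. Over all cells only 4 of the 15 were lower in every library, with a median of -0.30. Of 10 genes of secondary and tertiary granules, 3 were lower in every library, among them Mmp8 and Lcn2 (-1.08), and 0 were higher, with a median of -0.66. Over all cells the same list went the other way, with a median of 0.56 over 9 genes, 2 higher and 1 lower in every library.

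For the next 3 lists the share higher in every library was close to the 17.0% of all genes. Of 17 chemotactic and pattern receptors, 3 were higher (17.6%) and 3 lower in every library: Ccrl2, a chemerin receptor, had a ratio of 0.70 and Clec4n (Dectin-2) 0.72, while Tlr2 had -1.07 and Ccr1 -0.59. Of 13 genes with a role in suppressing T cells, Cd274 (PD-L1, ratio 0.54) and Havcr2 (TIM-3, 0.91) were higher in every library (15.4% of the list) and 2 were lower. Of the 6 markers of the hypoxic T3 state of mouse pancreatic tumour neutrophils, 1 was higher (Cd274, 16.7% of the list) and 1 lower (Tnfrsf23, -0.42) in every library, and Cd14 (-0.04) and Vegfa (0.28) had ratios near 0. Of 13 genes of iron, heme and antioxidant handling, 6 were lower in every library, with ferritin heavy chain (Fth1) at -0.33, and of 16 genes of glycolysis 5 were lower, among them the glucose transporters Slc2a1 (-0.54) and Slc2a3 (-1.12), while Hk2 was higher (0.52).

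Hedgehog genes, the pathway that IPI-926 blocks, were near the limit of detection in these cells. Gli1, its standard readout, had 6 UMIs over all members and Ptch1, the Hedgehog receptor and a target gene, had 53. The 2 genes averaged 0.470 ± 0.669 and 7.84 ± 4.40 CPM in Siglecf-type cells, and 0.862 ± 1.38 and 10.3 ± 1.46 CPM in other neutrophils (SD, n = 5 each).

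Between arms, IPI-926 was set against vehicle within Siglecf-type cells, a contrast the rule did not use. With edgeR's quasi-likelihood test on UMIs summed per library and Benjamini-Hochberg adjustment, 0 of 8996 genes passed an adjusted p of 0.05 (0.0%), and 298 (3.31%) had an unadjusted p under 0.05. DESeq2 called 8 genes (0.0889%) and limma-voom 0. With cells over 10000 UMIs left out, edgeR called 3 of 6850 genes (0.0438%): the interferon-induced genes Rsad2 and Isg15 rose and Gkn2 fell.

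Rsad2, which encodes the antiviral enzyme viperin, had 249 and 42 UMIs in Siglecf-type cells of IPI-926 replicates 1 and 2, against 0, 8 and 0 UMIs in vehicle replicates 1 to 3. That was 86.3 and 41.1 CPM after TMM scaling with IPI-926 and 0, 2.11 and 0 CPM with vehicle, without overlap. Few cells carried it: Rsad2 was detected in 7.17% of 642 and 2.88% of 313 Siglecf-type cells with IPI-926. With vehicle it was detected in 0%, 0.73% and 0% of them. The log2 fold change was 5.37 ± 0.72 (SE; adjusted p = 0.475, edgeR), and 5.18 ± 0.63 without cells over 10000 UMIs (adjusted p = 0.00198, edgeR). It passed in 6 of the 15 alternatives in which it was tested. Leaving out 1 library at a time gave folds from 4.77 to 9.30 with adjusted p from 0.0373 to 0.9997 in edgeR.

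Isg15, a ubiquitin-like interferon-stimulated gene, had 108 and 160.4 scaled CPM with IPI-926, against 25.2, 27.2 and 26.0 CPM with vehicle. The vehicle libraries were less alike without cells over 10000 UMIs. Isg15 then had 186 and 212 CPM with IPI-926 and 92.9, 42.6 and 41.2 CPM with vehicle replicates 1 to 3. The value of vehicle replicate 1 rested on 6 UMIs. The groups did not overlap, and the fold change was 2.34 ± 0.35 (SE; adjusted p = 0.545, edgeR), or 2.24 ± 0.38 without cells over 10000 UMIs (adjusted p = 0.0395, edgeR). Fcgr2b, an inhibitory Fc receptor gene, had 116 and 169 CPM with IPI-926 and 42.0, 45.9 and 41.1 CPM with vehicle, and a fold change of 1.71 ± 0.34 (SE; adjusted p = 0.958, edgeR). Without cells over 10000 UMIs Fcgr2b had 213 and 181 CPM with IPI-926 and 92.9, 71.7 and 61.7 CPM with vehicle. Vehicle replicate 1 again gave 6 UMIs. Rdh12 and Klhdc4, the other genes of smallest p above 0, had fold changes of 2.27 ± 0.43 and 2.19 ± 0.45.

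Gkn2, the gene of a stomach epithelial secreted protein, had 0 and 2.93 scaled CPM in Siglecf-type cells with IPI-926 and 21.0, 78.1 and 91.8 CPM with vehicle. Its fold change was -6.13 ± 1.18 (SE; adjusted p = 0.958, edgeR), and -5.80 ± 0.74 without cells over 10000 UMIs (adjusted p = 0.00283, edgeR). The epithelial-marker cells of the same libraries differed likewise, with 0.238, 9.18 and 61.2 CPM in IPI-926 replicates 1 to 3 and 249.6, 1667 and 221 CPM in vehicle replicates 1 to 3. Other neutrophils showed the same gene as their only call (1 of 10961, 0.00912%; -8.78, adjusted p = 0.00666, edgeR). Epithelial markers summed to 444 and 1064 CPM in Siglecf-type cells of up to 10000 UMIs with IPI-926 and to 2291, 767 and 1267 CPM with vehicle, and their part in the Gkn2 value was not tested.

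The other genes of smallest p below 0 were Lgals2 (-3.68 ± 0.59), Rida (-2.04 ± 0.36), 2200002D01Rik (-1.79 ± 0.37) and Cenpe (-2.13 ± 0.45). Without cells over 10000 UMIs, Rida had -0.97 ± 0.70 and 2200002D01Rik -0.62 ± 0.48, and Lgals2 and Cenpe were too low to be tested. None of the 4 passed in edgeR in either of these fits, with adjusted p of at least 0.568. DESeq2 called Lgals2, Rida and 2200002D01Rik, and edgeR with no filter on low counts called all 4.

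**Figure D4:**
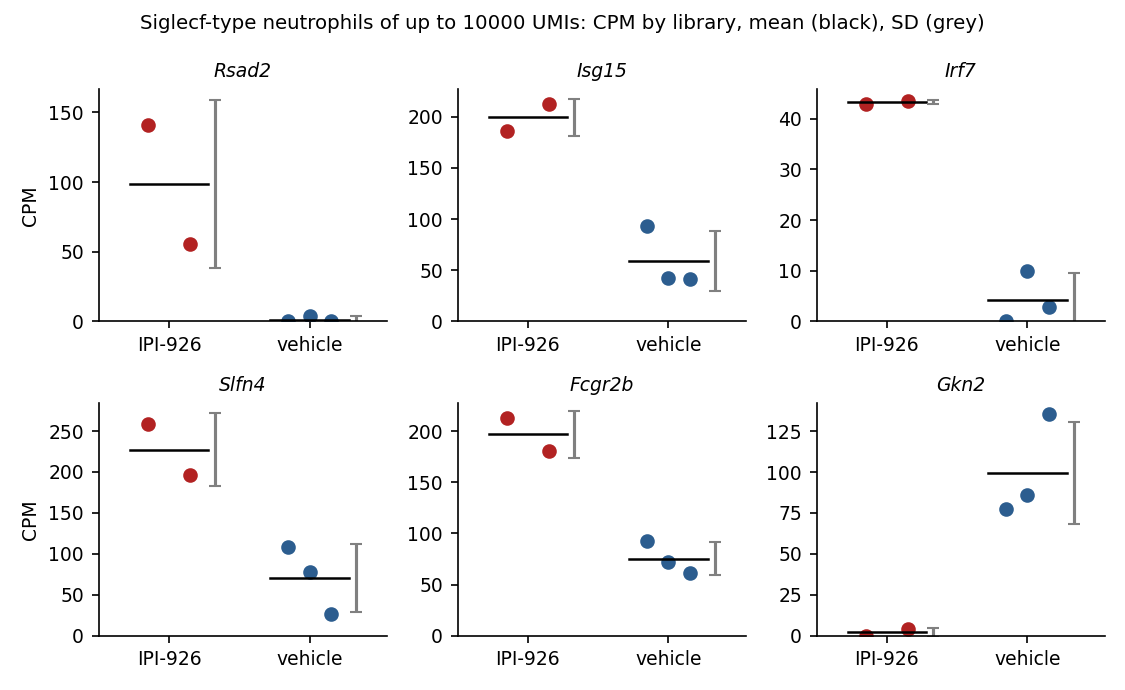
CPM in Siglecf-type neutrophils of up to 10000 UMIs by library (points), IPI-926 left of vehicle, for 6 genes, with means (black lines) and SD (grey bars). In these cells Rsad2 lies at 141 and 55.8 CPM with IPI-926 and at 0 to 4.01 CPM with vehicle, and Gkn2 at 0 and 4.08 CPM with IPI-926 and 77.4 to 135 CPM with vehicle.

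Interferon-response genes as a list had positive fold changes in all 14 members tested in Siglecf-type cells, with a median of 1.57 against -0.002 over all 8996 genes. In 9 of the 14, both IPI-926 libraries lay above all vehicle libraries, which was the case for 6.33% of all genes (13.9% had both below). Of the 14, 9 had an unadjusted p under 0.05 and 0 passed in edgeR over all cells, against 2 without cells over 10000 UMIs. Irf7, a transcription factor of the interferon response, had 31.9 and 39.1 scaled CPM with IPI-926 and 0, 7.66 and 4.11 CPM with vehicle (2.64 ± 0.58). Slfn4 had 142 and 144 CPM with IPI-926 and 33.6, 41.7 and 12.3 CPM with vehicle (2.26 ± 0.48). Cxcl10, a chemokine gene of the same response, had a fold change of 1.30 ± 0.61.

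The difference was not shown to be particular to Siglecf-type cells. In other neutrophils the 17 interferon genes tested also had positive fold changes, with a median of 2.16, and 8 of them did not overlap between arms, as did 2.14% of all genes upward and 4.89% downward. In that class IPI-926 replicate 3 was included, where Isg15 stood at 724 CPM in neutrophils of up to 10000 UMIs, against 228 and 224 CPM in replicates 1 and 2 and 76.8, 81.2 and 77.1 CPM with vehicle. In macrophage-marker cells Isg15 had 62.6, 23.3 and 419.7 CPM with IPI-926 and at most 18.8 CPM with vehicle. In epithelial-marker cells the arms overlapped, with 11.6, 15.0 and 258 CPM with IPI-926 and 16.4, 4.45 and 6.12 CPM with vehicle. A limma test of the difference of response between the classes within libraries called 0 of 11878 genes (0.0%), with 273 at an unadjusted p under 0.05. The same question put to edgeR with the library as a block called 1. For Isg15 that difference was 0.62 on the log2 scale (adjusted p = 0.928, limma) and for Rsad2 2.61 (adjusted p = 0.928, limma).

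The 4 genes of the rule are given without a test, since each cell was kept for having them: their log2 fold changes between arms within Siglecf-type cells were -0.31 for Siglecf, 0.31 for Ffar2, 0.57 for Gpr84 and 0.98 for Il23a. Tnf had 914 and 909 scaled CPM with IPI-926 and 181, 1060.5 and 222 CPM with vehicle, with overlap and a fold change of 0.89 ± 0.76. Ccl3, a monocyte chemokine gene, had 589.7 and 1277 CPM with IPI-926 and 118, 395 and 289 CPM with vehicle, without overlap (1.79 ± 0.58; adjusted p = 0.999, edgeR).

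Of the other lists, 16 cytokines and chemokines had a median fold change of 0.82 in Siglecf-type cells, with 7 not overlapping upward (43.8%, against 6.33% of all genes), 16 receptors a median of 0.92 with 8, and 14 hypoxia genes a median of 0.90 with 5 (35.7%). The 16 NF-kB targets had a median of 0.67 with 2 (12.5%), and the 16 glycolysis genes 0.51 with 3 (18.8%). These values are from cells of any depth. Without cells over 10000 UMIs, receptors had 0.73 with 4 of 17, against 5.42% of all genes. Cytokines then had 0.81 with 6 of 14 (1 downward) and hypoxia genes 0.91 with 5 of 14. At 1000 to 3000 UMIs receptors had 0.56 with 3 of 17 (1 downward). In other neutrophils of any depth, cytokines and receptors had 0.23 and 0.19, with 0 not overlapping upward. Hypoxia genes there had 0.62 with 3 of 15, and glycolysis genes 0.67 with 8 of 16. The 4 MHC class II genes all had negative fold changes in Siglecf-type cells of any depth, with a median of -1.20. In 0 of the 4 were both IPI-926 libraries below all vehicle libraries, which was the case for 13.9% of all genes. In other neutrophils all 4 had positive fold changes, with a median of 0.82. Of the 8 Hedgehog genes only 1 was high enough to be tested, and of the WNT targets 3 and the VEGF family genes 7. None of these genes was called by edgeR over all cells, and Ccl3 passed with no filter on low counts (adjusted p = 0.04115, edgeR). Vegfa had a fold change of -0.09.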

How the data were processed

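The deposited values are unnormalized counts of UMIs, by gene and barcode. Per the submitters' processing notes they were made with Cell Ranger 2.1.1 on mm10, while the matrix headers, per the file headers, name cellranger 6.1.2; which one made the values is not settled. Cells with at least 500 UMIs, 300 genes detected and at most 20% mitochondrial UMIs were kept. Doublets were scored with Scrublet (scanpy 1.11.5) and left in, and their removal was an alternative. UMIs were summed per library and class, for libraries with 20 cells of the class. Tests were edgeR 4.0.16 quasi-likelihood fits (R 4.3.3; TMM scaling, default expression filter, Benjamini-Hochberg adjustment at 0.05) of IPI-926 against vehicle, limma 3.58.1 on within-library differences between classes, and two-sided exact permutation tests of shares (scipy 1.17.1). Fold changes are IPI-926 over vehicle.

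Named genes were those of the membership rule, the 12 largest and 12 smallest class ratios at 50 CPM or more, and the highest members of each list. Between arms, genes that passed at 10 CPM or more with groups that do not overlap were to be named. As 0 passed in Siglecf-type cells, the 5 of smallest p in each direction were taken, with no such floor and no condition on overlap. Some genes that these rules name are not reported here, though counts over lists include them. Some further list members were named after their values were seen. The members and lists were chosen with earlier results of these data known. Alternatives were DESeq2 1.42.0, limma-voom, RLE scaling, no filter on low counts, other membership and cell filters, equal cell numbers, a depth window, thinning to 500 or 2000 UMIs, and each library left out. The edgeR and limma steps were tested on simulated data. These did not model single deep cells, so they give no assurance for the libraries here in that respect. Replicates are separate mice by their labels. The precision of low genes is set by the number of cells, which was 35 in the smallest library tested.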

Additional observations from a re-analysis of the deposited data

How the results depend on the processing

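The count of genes called between IPI-926 and vehicle in Siglecf-type cells, 0 in edgeR, was 2 at 1000 to 3000 UMIs, 9 with equal cells per library, 3 without cells over 10000 UMIs (chosen after seeing the data), 8 with DESeq2 and 117 with no filter on low counts. Leaving out 1 library gave 0 to 5 calls, with 1 without IPI-926 replicate 1 and 5 without IPI-926 replicate 2, where a lone IPI-926 library is assumed to vary like the others. In other neutrophils the count of 1 was 15 with DESeq2 and 0 with limma-voom, with equal cells, and in cells with no Csf1r or C1q UMI; leaving out 1 library gave 0 to 1. The difference of response had 0 calls in limma and 1 in edgeR with the library as a block and an interaction. The cause was not tested in any of these.

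The difference in the share of neutrophils that are Siglecf-type stayed below 0 (-15.88 to -0.05 points with 1 library left out). Neutrophils as a share of kept cells differed by 4.44 points, and by -2.90 to 12.55 with 1 library left out, the lowest without IPI-926 replicate 1.

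Among named fold changes between arms, 273 values under alternatives kept direction and side, 27 came to pass the test and 2 changed sign. These were Cenpe with equal cells (0.51) and Gpr84 in cells with 3 or more rule genes (-0.0442). Among class ratios 11 changed sign. With 3 or more rule genes these were Ube2c (-1.07), Sec11c (-0.0221) and Mxd1 (0.0043). At 1000 to 3000 UMIs they were Ube2c (-0.30), Cxcl13 (0.58), Fabp4 (0.42) and Camp (-2.62), and without cells over 10000 UMIs Ube2c (-0.56), Gng11 (0.14), Fabp4 (0.59) and Camp (-1.38).

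No paired analysis was possible because the replicate numbers only name the mice in accession order and pair none of them across arms. With 2 IPI-926 libraries in the tests and 35 cells in vehicle replicate 1, small differences were not detectable. Large ones also did not pass in edgeR over all Siglecf-type cells. Rsad2 had a log2 fold change of 5.37 (adjusted p = 0.475, edgeR) and Gkn2 one of -6.13 (adjusted p = 0.958, edgeR). The lack of calls there does not show that large differences were absent.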

Other observations

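Across all neutrophils of 1000 to 3000 UMIs, whichever class, the libraries themselves differed along the same genes. Retnlg had 1811, 483.5 and 8295 CPM in IPI-926 replicates 1 to 3 and 4280, 241 and 1509 CPM in vehicle replicates 1 to 3. Il1a had 702, 706 and 15.3 CPM with IPI-926 and 269, 880 and 628 CPM with vehicle. IPI-926 replicate 3, which held 1 Siglecf-type cell, had the highest Retnlg and the lowest Il1a of the 6 libraries in this window, where it had 95 cells, and the arms overlapped for both genes. Over neutrophils of any depth its Retnlg was 822 CPM, below IPI-926 replicate 1 (2012 CPM) and vehicle replicates 1 (2624 CPM) and 3 (945 CPM).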
